A study of Mus musculus with 6 samples.

Results

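The S100 genes encode small proteins with a pair of calcium-binding EF hands, and 10 of them were followed here in cultured mouse keratinocytes with and without the DNA methyltransferase Dnmt1: S100a3, S100a4, S100a6, S100a8, S100a9, S100a10, S100a11, S100a13, S100a14 and S100a16. The genes were chosen by name, through their Ensembl identifiers, from the 43629 genes of the count table, and all 10 were among the 16829 genes with enough reads to be tested. S100a8, S100a9, S100a4 and S100a3 rose in Dnmt1Δ/Δep keratinocytes by between 2.59-fold and 3.88-fold, and the other 6 genes did not pass the test. With 1 library left out, between 0 and 3 of the 10 were called. The 4 genes that rose were low or intermediate in control cells, whereas the most abundant S100 genes of these cells were among those that did not pass.

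S100 proteins work as dimers that open a binding surface when calcium is bound, and S100a10 is the exception that holds this shape without calcium. Inside the cell they bind annexins, myosin and other partners. Some are released from stressed or dying cells and then act on receptors such as Tlr4 and Rage, and S100a8 and S100a9 together form calprotectin, a metal-binding alarmin of neutrophils that is also made by inflamed or wounded epidermis. Most S100 genes of the mouse lie on chromosome 3 beside the epidermal differentiation complex, which holds the genes of the cornified envelope.

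The libraries were made from poly(A) RNA of keratinocytes that had been isolated from the epidermis of female mice at postnatal day 3 and grown in culture, for 5 days by the labels, in low-calcium keratinocyte medium. All mice were of a mixed C57BL/6J and 129SV background. In the 3 Dnmt1Δ/Δep mice the floxed Dnmt1 alleles (f/f) had been deleted by a Cre transgene under the Keratin 5 promoter, which is active in basal keratinocytes, and the 3 control mice carried floxed Dnmt1 (f/f or f/+) without Cre. Cells other than keratinocytes that do not use this promoter keep Dnmt1, and culture selects the cells that attach and grow, which limits the cells as a model of the epidermis.

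The libraries held between 53433121 and 115526598 reads assigned to genes, so that 3 reads amounted to at most 0.0558 counts per 1000000 (CPM). Dnmt1 itself was at 394, 379 and 324 CPM in control libraries 1 to 3 and at 49.7, 54.3 and 50.7 CPM in Dnmt1Δ/Δep libraries 1 to 3. It fell by 2.83 on the log2 scale (SE 0.11), with an adjusted p of 8.1e-05 in the quasi-likelihood test of edgeR, after Benjamini-Hochberg over all genes. Throughout, a gene was called when its adjusted p was at most 0.05 and its log2 fold change was 1 or more in either direction.

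By these criteria 4 of the 10 S100 genes were called higher in Dnmt1Δ/Δep cells, where 6.03% of all tested genes were, and 0 of 10 were called lower, where 0.392% of all tested genes were. The count of 4 depended on single libraries: it was 0 without Dnmt1Δ/Δep replicate 1 and 1 to 3 when any other library was left out, and it was 1 with genes under 1 RPKM in both groups removed before the test. Calls over all genes moved as well, from 1014 higher to 591 without Dnmt1Δ/Δep replicate 1, to between 559 and 1183 when any other library was left out, and to 391 with the RPKM filter. At an unadjusted p under 0.05 edgeR also had 0 of the 10 lower, where 7.79% of all tested genes were, and 4 higher, where 15.8% were. DESeq2 called 4 higher and 0 lower, against 7.63% and 0.689% of all tested genes. Among the 9310 tested genes with a mean above 10 CPM, 1.95% were called higher. Of the 10 S100 genes, S100a3 and S100a13 lay below this mean, while the called genes S100a4, S100a8 and S100a9 lay above it. That share is therefore no background for the call of S100a3. The 4 called genes were the only S100 genes here to pass the adjusted p alone. Of all tested genes, 7.71% passed it in the upward direction and 1.66% in the downward direction. In each of the 4 the lowest Dnmt1Δ/Δep library lay above the highest control library, which held for 18.2% of all tested genes. The median log2 fold change was 0.17 over the 10 genes and -0.00089 over all tested genes.

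Some markers of keratinocyte layers and of other cells also differed between the groups, and their part in the S100 results was not tested. Stress keratin markers summed to 14646 to 19569 CPM in control and 15162 to 17626 CPM in Dnmt1Δ/Δep libraries. Of these 4 genes 0 were called by edgeR or DESeq2, and 1 was lower without overlap (11.7% of all tested genes). T cell markers summed to 0.740 to 1.04 and 0.386 to 0.682 CPM, and the 1 gene tested was lower without overlap but not called. Basal keratinocyte markers summed to 28828 to 32710 CPM in control and 21801 to 22222 CPM in Dnmt1Δ/Δep libraries, 4 of the 7 passed the adjusted p in the downward direction (1.66% of all tested genes), and the keratin gene Krt15 was called lower (log2 fold change -3.66, edgeR adjusted p = 0.019). The sum of the differentiated keratinocyte markers overlapped between the groups, at 1882 to 3813 and 2032 to 3296 CPM, while single genes moved in both directions. Of the 15, edgeR called 2 higher and 1 lower (6.03% and 0.392% of all tested genes), and DESeq2 called 5 higher and 3 lower (7.63% and 0.689%). Calml3, which encodes an epithelial calmodulin-like protein, was at 0.962, 3.27 and 5.43 CPM in control and 24.6, 20.6 and 13.1 CPM in Dnmt1Δ/Δep libraries (log2 fold change 2.60, edgeR adjusted p = 0.033). The cornified envelope gene Cnfn was at 20.1, 22.7 and 32.5 and at 129, 126 and 40.3 CPM (log2 fold change 1.97, edgeR adjusted p = 0.032, and 0.070 with the replicate block), and the late envelope gene Lce3d was called lower (log2 fold change -1.08, edgeR adjusted p = 0.035). Krt1, the keratin of the suprabasal layers, named after its values were seen, ran from 53.2 to 530.2 CPM in control and from 59.2 to 66.1 CPM in Dnmt1Δ/Δep libraries and was not called (log2 fold change -2.30, edgeR adjusted p = 0.085). Melanocyte markers summed to 224 to 573 CPM in control and 688 to 912 CPM in Dnmt1Δ/Δep libraries, with 0 of 7 called by edgeR, 4 higher at an unadjusted p under 0.05 (15.8% of all tested genes), 5 higher without overlap (18.2%) and 1 called by DESeq2 (7.63%). Endothelial markers summed to 5.94 to 17.4 and 16.2 to 24.1 CPM, and 4 of the 5 were higher without overlap between the groups, as were 18.2% of all tested genes. DESeq2 called 3 of the 5 higher (7.63% of all tested genes) and edgeR 2 (6.03%), the adhesion genes Pecam1 (log2 fold change 1.89, edgeR adjusted p = 0.0075) and Cdh5 (log2 fold change 4.11, edgeR adjusted p = 0.0097). Kdr had a negative estimate and was not called (log2 fold change -0.16, edgeR adjusted p = 0.93). It ran from 2.75 to 13.3 CPM in control and from 3.09 to 8.87 CPM in Dnmt1Δ/Δep libraries. Pecam1 and Cdh5 remained called when any single library was left out, whereas Krt15, Calml3, Cnfn and Lce3d each lost the call on leaving out 4 of the 6 libraries in turn.

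**Figure D1:**
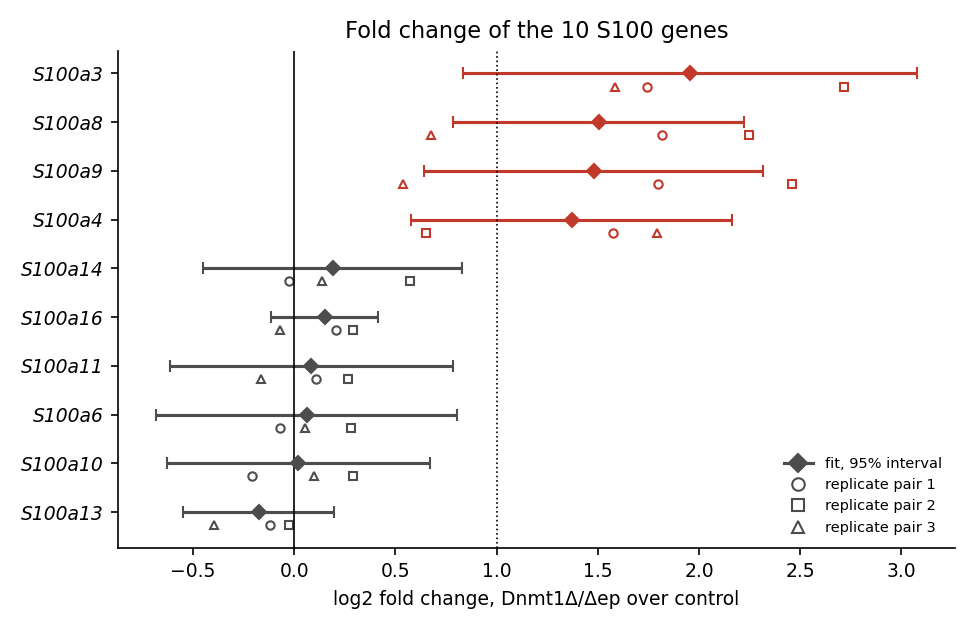
Log2 fold change of each S100 gene in Dnmt1Δ/Δep over control keratinocytes, with diamonds and bars for the edgeR estimate and its 95% interval and open symbols for the 3 differences between libraries of the same replicate number. The 4 called genes, in red, lie right of the dotted line at 1 and the intervals of the other 6 all span 0.

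S100a8 and S100a9, the subunits of calprotectin, rose together. S100a8 (ENSMUSG00000056054) was at 37.2, 23.8 and 57.5 CPM in control libraries 1 to 3 and at 131, 113 and 91.8 CPM in Dnmt1Δ/Δep libraries 1 to 3. S100a9 (ENSMUSG00000056071) was at 32.6, 25.5 and 68.8 CPM in the controls and at 113, 140 and 99.9 CPM in the Dnmt1Δ/Δep libraries. For both genes control 3 was the highest control and Dnmt1Δ/Δep 3 the lowest Dnmt1Δ/Δep library, and the groups did not overlap. The increase was 2.84-fold for S100a8 (log2 1.50, SE 0.31, edgeR adjusted p = 0.025) and 2.79-fold for S100a9 (log2 1.48, SE 0.36, edgeR adjusted p = 0.045). Within replicate pairs, the log2 difference of S100a8 was 1.82, 2.25 and 0.67 and that of S100a9 was 1.80, 2.46 and 0.54, so the third pair differed least for both.

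The call of S100a8 was lost without Dnmt1Δ/Δep replicate 1 (edgeR adjusted p = 0.092) and without Dnmt1Δ/Δep replicate 2 (edgeR adjusted p = 0.077), and over 12 alternatives its log2 fold change ran from 1.24 to 1.87 and its adjusted p from 3.1e-05 to 0.092. S100a9 remained called without control replicate 3 and lost its call when any other single library was left out (edgeR adjusted p from 0.074 to 0.13) and when genes under 1 RPKM in both groups were removed before the test (edgeR adjusted p = 0.063). Over the 12 alternatives its log2 fold change ran from 1.22 to 2.02 and its adjusted p from 0.00042 to 0.13.

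The proportion of the subunits overlapped between the groups. The log2 ratio of S100a8 to S100a9, each per kilobase of exon, was -0.22, -0.51 and -0.67 in control libraries 1 to 3 and -0.20, -0.73 and -0.53 in Dnmt1Δ/Δep libraries 1 to 3. The means were -0.47 ± 0.23 (SD, n = 3) and -0.49 ± 0.27 (SD, n = 3), and the difference of -0.02 had p = 0.8 in a two-sided exact permutation test, whose smallest possible p with 3 against 3 is 0.1. Across the 6 libraries log2(CPM + 1) of the pair correlated with r = 0.98, a description over libraries that share the group difference.

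**Figure D2:**
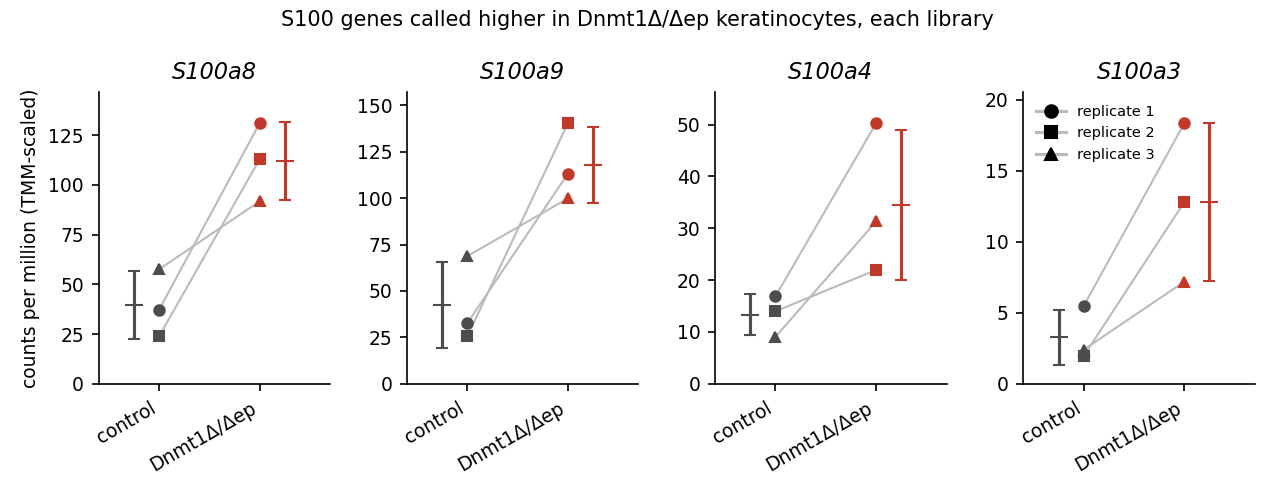
CPM of the 4 S100 genes called higher, for each control (grey) and Dnmt1Δ/Δep (red) library, with grey lines joining libraries of the same replicate number and bars for the mean ± SD of 3 libraries. Every line rises, and the lines of replicate 3 are the flattest for S100a8 and S100a9, from 57.5 to 91.8 and from 68.8 to 99.9 CPM.

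S100a8 (chr3:90668978-90670035, plus strand, GRCm38) and S100a9 (chr3:90692632-90695721, minus strand) are neighbours that point towards each other, with their starts 26.7 kb apart. Because both rose, their promoters are shown, from RefSeq on GRCm38.p6, as the 300 bases that run from 250 before to 50 after the annotated start, read 5′ to 3′ on the strand of the gene. CpG dinucleotides, the sites that Dnmt1 methylates, are in capitals. The windows are chr3:90668821-90669120 for S100a8 and chr3:90695672-90695971 on the minus strand for S100a9.
S100a8: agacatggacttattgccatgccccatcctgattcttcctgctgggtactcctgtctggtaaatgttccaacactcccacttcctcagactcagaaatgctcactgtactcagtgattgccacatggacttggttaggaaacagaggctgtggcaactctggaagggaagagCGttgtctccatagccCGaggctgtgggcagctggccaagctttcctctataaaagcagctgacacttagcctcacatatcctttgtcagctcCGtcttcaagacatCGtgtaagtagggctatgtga
S100a9: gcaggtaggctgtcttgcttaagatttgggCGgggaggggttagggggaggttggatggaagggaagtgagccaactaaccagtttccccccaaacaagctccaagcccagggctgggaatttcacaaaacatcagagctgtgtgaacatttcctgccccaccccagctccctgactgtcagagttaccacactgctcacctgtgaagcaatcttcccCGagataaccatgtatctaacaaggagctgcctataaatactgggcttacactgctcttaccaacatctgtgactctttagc
The S100a8 window holds 4 CpG and the S100a9 window 2, where the median over 32817 mouse promoter windows of this length is 7 and the lower and upper quartiles are 3 and 20. A TATA box (TATAAA, searched on both strands) begins 30 bases before the start of S100a8 and at the annotated start itself in S100a9, and 13.6% of all windows hold one. A C/EBP motif (TTNNGNAA, both strands) lies 117 bases before the start of S100a8, and 2 such motifs lie 236 and 130 bases before that of S100a9, without overlap with the TATA box. This short motif occurs in 40.7% of all windows. Neither window holds the AP-1 motif (TGANTCA, in 7.81% of windows) or the NF-kappaB motif (searched on both strands, in 1.63%), which says only that these letters are not in these windows, and methylation was not measured in these libraries.

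Since S100a8 and S100a9 are also the leading genes of neutrophils, the markers of that cell type are given beside them. The 12 neutrophil markers summed to 0.338 to 1.25 CPM in control and 2.91 to 4.23 CPM in Dnmt1Δ/Δep libraries. Of the 12, 9 stayed under 1 CPM in every library and Csf3r and Retnlg had no read. The other 3 were those with enough reads to be tested. Cxcr2 and Itgam were higher without overlap between the groups (18.2% of all tested genes), at an unadjusted p under 0.05 in edgeR (15.8%) and by the call of DESeq2 (7.63%). So was Ltf, which had 2, 1 and 3 reads in control and 95, 121 and 53 in Dnmt1Δ/Δep libraries 1 to 3. Ltf passed the filter only through the Dnmt1Δ/Δep libraries, so its direction was fixed in advance. The chemokine receptor gene Cxcr2, named after its values were seen, did not pass in edgeR (log2 fold change 1.95, edgeR adjusted p = 0.054), while Ltf, which encodes lactoferrin, and the integrin gene Itgam (log2 fold change 2.35, edgeR adjusted p = 0.047) were called higher. The call of Itgam held only without control replicate 3 and was lost when any other single library was left out (edgeR adjusted p from 0.052 to 0.16). In the annotation 68.7% of the exon bases of Itgam are shared with Gm49368 on the same strand, but Gm49368 is not among the genes of the count table. Ltf was at 0.0211, 0.0103 and 0.0558 CPM in control and at 1.59, 1.40 and 0.449 CPM in Dnmt1Δ/Δep libraries 1 to 3. The part of neutrophils in the increase of S100a8 and S100a9 was not tested. In bulk RNA, more cells of a type and more RNA per cell cannot be told apart.

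S100a4 (ENSMUSG00000001020), which binds non-muscle myosin and is abundant in fibroblasts and macrophages, was at 16.9, 14 and 9.03 CPM in control libraries 1 to 3. In the Dnmt1Δ/Δep libraries it was at 50.2, 21.9 and 31.3 CPM. The groups did not overlap, and Dnmt1Δ/Δep 2 came closest to the controls. The increase was 2.59-fold (log2 1.37, SE 0.34, edgeR adjusted p = 0.048), with log2 differences of 1.57, 0.65 and 1.79 within replicate pairs. The call was lost on leaving out replicate 1 or 3 of the Dnmt1Δ/Δep group or replicate 2 or 3 of the controls (edgeR adjusted p from 0.098 to 0.14) and with genes under 1 RPKM removed (edgeR adjusted p = 0.060), and over the 12 alternatives the log2 fold change ran from 1.0 to 1.58 and the adjusted p from 0.00097 to 0.14.

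Of 10 fibroblast markers edgeR called 0 (6.03% of all tested genes were called higher), DESeq2 called 1 (7.63%) and 4 were higher at an unadjusted p under 0.05 in edgeR (15.8%). The markers summed to 86.2, 123 and 67.8 CPM in control and to 267, 103 and 263 CPM in Dnmt1Δ/Δep libraries 1 to 3, so that Dnmt1Δ/Δep 2 was the lowest of its group for this list as it was for S100a4. Most of the sum came from Vim, which cultured keratinocytes also express. The macrophage and dendritic cell markers summed to 49.1 to 62.8 CPM in control and 101 to 118 CPM in Dnmt1Δ/Δep libraries, and 10 of the 12 genes stayed under 1 CPM in every library. Of the 4 tested, 2 passed the adjusted p (7.71% of all tested genes) and 3 did not overlap between the groups (18.2%), all higher in Dnmt1Δ/Δep cells. Among these 3 was Cd74, named after its values were seen, with 0, 0 and 7 reads in control and 29, 14 and 43 in Dnmt1Δ/Δep libraries 1 to 3. Cd74 passed the filter only through the Dnmt1Δ/Δep libraries, so its direction was fixed in advance. The lysosomal gene Cd68, which made up nearly all of the sum, was at 48.9, 51.3 and 62.2 CPM in control and 115, 105 and 98.7 CPM in Dnmt1Δ/Δep libraries 1 to 3 (log2 fold change 0.97, edgeR adjusted p = 0.0041), just under the fold threshold. Csf1r, the receptor of macrophage colony-stimulating factor, was called higher, from 0.137, 0.390 and 0.186 to 2.42, 0.786 and 1.43 CPM (log2 fold change 2.67, edgeR adjusted p = 0.027, and 0.053 with the replicate block). Its call was also lost on leaving out replicate 1 or 3 of the Dnmt1Δ/Δep group or replicate 3 of the controls. Of its exon bases, 15.1% are shared with Hmgxb3 on the other strand. The part of these cells in the level of S100a4 was not tested.

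S100a3 (ENSMUSG00000001021), known from the cuticle of the hair, was the lowest of the 10 genes per length and had the largest fold change among them. It was at 5.49, 1.95 and 2.40 CPM in control and at 18.4, 12.8 and 7.20 CPM in Dnmt1Δ/Δep libraries 1 to 3. Replicate 1 was the highest library of each group, and the groups did not overlap. The increase was 3.88-fold (log2 1.96, SE 0.48, edgeR adjusted p = 0.047), and the log2 differences within pairs were 1.74, 2.72 and 1.58. The call was lost on leaving out replicate 1 or 2 of the Dnmt1Δ/Δep group or replicate 2 or 3 of the controls (edgeR adjusted p from 0.11 to 0.15) and with genes under 1 RPKM removed (edgeR adjusted p = 0.059), and over the 12 alternatives the log2 fold change ran from 1.60 to 2.56 and the adjusted p from 0.00022 to 0.15.

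S100a4 follows S100a3 on the plus strand at a distance of 1.07 kb, at chr3:90603771-90606045 after chr3:90560578-90602702. In the annotation 51.7% of the exon bases of S100a4 are shared with the readthrough gene Gm42674, and 2.54% of those of S100a3. Gm42674 is not among the genes of the count table, so reads of its transcript could have been counted to S100a3 or S100a4. The S100a4 window, chr3:90603520-90603819 from RefSeq on GRCm38.p6, is shown in the same way, with CpG in capitals, beside those of S100a6 (chr3:90612644-90612943) and S100a11 (chr3:93520246-93520545), a pair of abundant S100 genes that were not called.
S100a4: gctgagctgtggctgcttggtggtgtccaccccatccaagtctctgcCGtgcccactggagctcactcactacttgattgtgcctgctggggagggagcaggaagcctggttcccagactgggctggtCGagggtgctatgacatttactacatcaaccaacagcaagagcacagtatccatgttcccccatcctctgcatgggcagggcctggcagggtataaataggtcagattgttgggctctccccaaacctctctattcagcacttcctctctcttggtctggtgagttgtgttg
S100a6: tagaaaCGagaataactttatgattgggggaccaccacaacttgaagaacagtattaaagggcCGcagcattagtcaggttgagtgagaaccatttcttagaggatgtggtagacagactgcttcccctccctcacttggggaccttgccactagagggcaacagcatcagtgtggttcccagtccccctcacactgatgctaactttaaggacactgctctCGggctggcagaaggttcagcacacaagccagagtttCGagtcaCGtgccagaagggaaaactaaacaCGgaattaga
S100a11: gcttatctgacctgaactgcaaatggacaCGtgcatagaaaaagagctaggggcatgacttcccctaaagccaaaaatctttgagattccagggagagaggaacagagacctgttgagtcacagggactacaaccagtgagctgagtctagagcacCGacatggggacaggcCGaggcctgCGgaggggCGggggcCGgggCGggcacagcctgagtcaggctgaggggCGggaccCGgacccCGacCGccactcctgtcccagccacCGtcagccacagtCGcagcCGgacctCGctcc
The S100a4 window holds 2 CpG, with a TATA box 31 bases before the start, and the 4 windows of S100a3 hold between 0 and 5. All 7 windows of the called genes therefore hold fewer CpG than the median promoter. Of the 4 genes with windows that were not called, S100a11 has 15 CpG and S100a13 has 14, while S100a6 with 6 and the 2 windows of S100a16 with 2 and 4 also lie below the median, so low CpG number was not restricted to the genes that rose. The S100a11 window holds 2 AP-1 motifs, 136 and 38 bases before the start, and the S100a16 window chr3:90540896-90541195 holds 1. RefSeq windows were matched for 8 of the 10 genes, and S100a10 and S100a14 had none.

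The remaining 6 genes include the most abundant S100 transcripts of these cells, and none of them was called. S100a6, or calcyclin, was at 2251, 1241 and 1118 CPM in control and 2146, 1506 and 1158 CPM in Dnmt1Δ/Δep libraries 1 to 3 (log2 fold change 0.06, 95% interval -0.68 to 0.81, edgeR adjusted p = 0.95). S100a10, the partner of annexin A2, was at 1757, 1005 and 905 CPM and 1521, 1230 and 968 CPM (log2 fold change 0.02, interval -0.63 to 0.67, edgeR adjusted p = 0.98). Replicate 1 was the highest library in each group for both genes, and the ranges of control and Dnmt1Δ/Δep libraries overlapped.

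S100a11, a partner of annexin A1 that is built into the cornified envelope, was at 1263, 749 and 761 CPM in control and 1362, 899 and 678 CPM in Dnmt1Δ/Δep libraries (log2 fold change 0.08, interval -0.62 to 0.78, edgeR adjusted p = 0.92). Processed pseudogenes of S100a11, Gm12854 and Gm7665, match 297 bases of its transcript at 99.0% and 98.7% identity. The column headers name unique alignments, so reads that fit S100a11 and a pseudogene equally well may be missing from its count. S100a14, an S100 gene of epithelia, was at 955, 501 and 544 CPM and 938, 745 and 598 CPM (log2 fold change 0.19, interval -0.45 to 0.83, edgeR adjusted p = 0.77). Both were again highest in replicate 1. Across the 6 libraries S100a6, S100a10, S100a11 and S100a14 correlated with each other at r from 0.93 to 0.99 on log2(CPM + 1), whereas S100a8 correlated with S100a6 at 0.16, a description over libraries that share the group difference and the replicate pairs.

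S100a16, a widely expressed member of the family, was the steadiest of the abundant genes in the controls, at 373, 385 and 384 CPM, and was at 430, 471 and 366 CPM in Dnmt1Δ/Δep cells. Its log2 fold change of 0.15 (interval -0.12 to 0.42, edgeR adjusted p = 0.50) had the narrowest interval of the 10 genes, which leaves out a change of 2-fold. S100a13, which takes part in the release of Fgf1 from cells, was at 8.37, 7.17 and 7.80 CPM in control and 7.70, 7.05 and 5.93 CPM in Dnmt1Δ/Δep libraries. It was the only one of the 10 with a negative estimate (log2 fold change -0.18, interval -0.55 to 0.20, edgeR adjusted p = 0.59). None of the 6 intervals reached a log2 fold change of 1 or -1.

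Levels of different genes were compared per length, as reads per kilobase of merged exons and per 1000000 reads (RPKM). In the controls S100a11 was highest, at 1809 ± 574 RPKM (SD, n = 3), followed by S100a6 at 1124 ± 455, S100a10 at 1009 ± 384, S100a14 at 386 ± 145 and S100a16 at 235 ± 4.15. S100a9 at 81.0 ± 44.4, S100a8 at 56.9 ± 24.5, S100a4 at 22.8 ± 6.79, S100a13 at 10.9 ± 0.84 and S100a3 at 0.579 ± 0.34 followed. The order of the group means was the same in Dnmt1Δ/Δep cells. With the length of the longest transcript instead of merged exons S100a6 came first, at 1962 RPKM in the controls, and S100a11 second, and the level of S100a3 was 1.04 RPKM.

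In the controls the ranges of S100a11 and S100a6, of S100a6 and S100a10, and of S100a9 and S100a8 overlapped, while the other neighbours in the order did not. In the Dnmt1Δ/Δep libraries S100a11, S100a6 and S100a10 overlapped in the same way, while S100a9 reached 191 to 269 RPKM and overlapped S100a16, which ran from 226 to 291 RPKM, and lay above S100a8 at 132 to 189 RPKM. That order of S100a9 and S100a8 depended on the exon model, because with the longest transcript they overlapped, at 192 to 271 RPKM for S100a9 and 184 to 263 RPKM for S100a8. So did the overlap of S100a9 with S100a16, which with the longest transcript ran from 325 to 418 RPKM and lay above S100a9. With that length S100a14 and S100a16 overlapped in both groups. The called genes together made up 2.24%, 2.79% and 5.99% of the summed RPKM of the 10 genes in control libraries 1 to 3 and 7.27%, 9.28% and 9.62% in Dnmt1Δ/Δep libraries 1 to 3. The 5 most abundant genes still held 91.1% of that sum in Dnmt1Δ/Δep cells on average, against 96.1% in the controls.

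**Figure D3:**
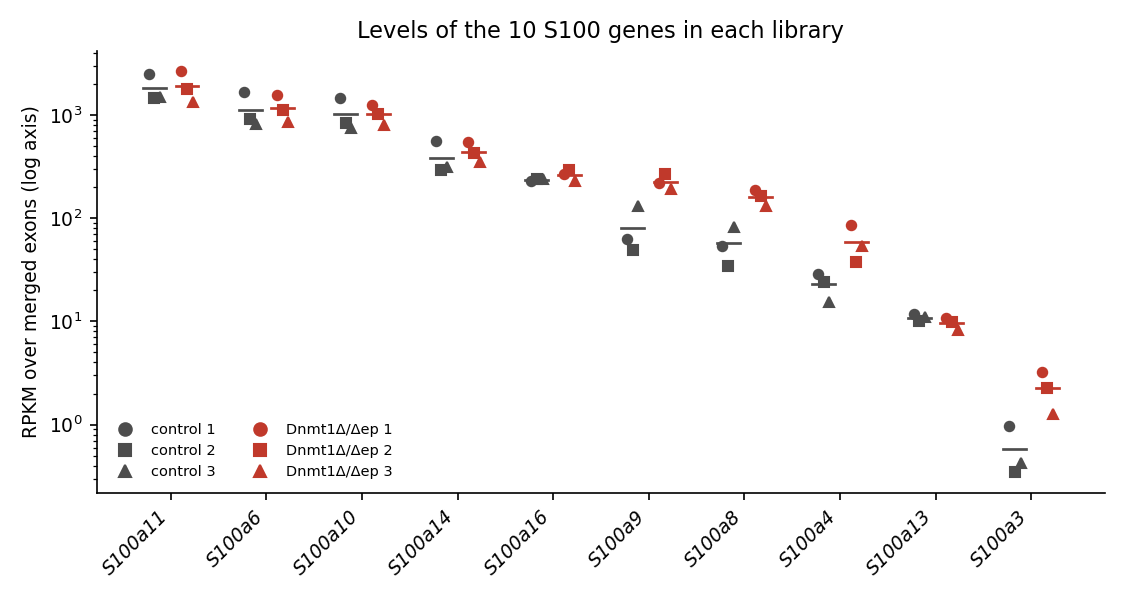
RPKM of each S100 gene on a log axis, one symbol per library in grey for control and red for Dnmt1Δ/Δep, with lines at the group means. The genes are ordered by their control mean, and S100a9 moves from 81.0 RPKM in control cells into the range of S100a16, which reaches 226 RPKM at its lowest in Dnmt1Δ/Δep cells. This holds for merged exons, as drawn. With the longest transcript S100a9 stayed at or below 271 RPKM and S100a16 at or above 325 RPKM in these cells.

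Position on chromosome 3 was not used in choosing the genes. The stretch from S100a13 to S100a9 spans 181 kb, and S100a11 and S100a10 lie 2825 kb further on, beyond the epidermal differentiation complex. The 4 called genes fell in the part of the cluster from S100a3 to S100a9, but S100a6, which was not called, lies between S100a4 and S100a8. The genes at the other end, S100a13, S100a14 and S100a16, had log2 fold changes from -0.18 to 0.19. Neither S100a11 nor S100a10 was called.

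Of the other S100 genes, 7 were in the table and 4 had enough reads to be tested, and 0 of the 4 were called in edgeR. At an unadjusted p under 0.05 edgeR had 3 of them higher, where 15.8% of all tested genes were. DESeq2 called 2 higher, where it called 7.63% of all tested genes, and 3 lay without overlap above the controls, as 18.2% of all tested genes did. S100a2, an epidermal S100 gene that lies within the span of S100a3, was at 0.708, 0.226 and 0.130 CPM in control and 4.03, 2.12 and 1.20 CPM in Dnmt1Δ/Δep libraries 1 to 3 (log2 fold change 2.73, SE 0.69, edgeR adjusted p = 0.050). S100a7a, which is related to psoriasin and lies just before S100a8, was at 8.84, 3.62 and 2.25 CPM and 27.9, 16.3 and 11.6 CPM (log2 fold change 1.91, SE 0.53, edgeR adjusted p = 0.070). Both were higher in each Dnmt1Δ/Δep library than in any control and just missed the threshold, S100a2 with an adjusted p slightly above 0.05. S100a1, at the far end of the cluster, had a log2 fold change of 0.32 (SE 0.17, edgeR adjusted p = 0.33).

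**Figure D4:**
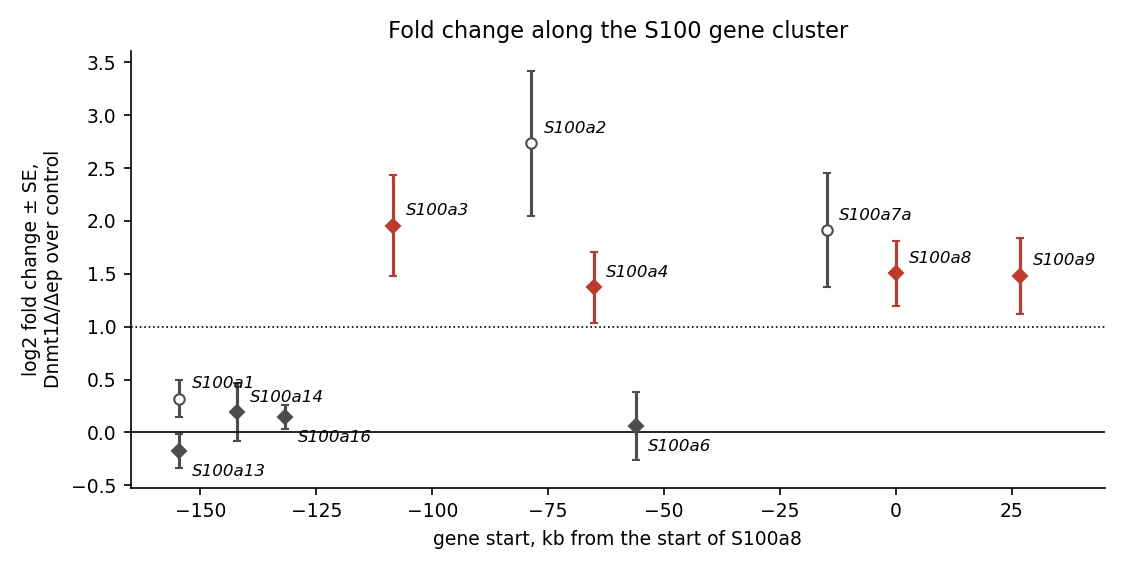
Log2 fold change ± SE of the tested S100 genes of the cluster on chromosome 3, against the distance of each gene start from the start of S100a8 in kb, with filled diamonds for the 8 of the 10 genes that lie there, open circles for other S100 genes and red for called genes. Between S100a3 and S100a9 the estimates lie above 1 (dotted line) except that of S100a6, which is 0.06.

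The S100 fused-type genes carry an S100 domain at the start of a long structural protein of the cornified envelope or hair follicle. Of 7 such genes, 6 were tested and 1 was called higher, where 6.03% of all tested genes were. Tchhl1, a relative of trichohyalin, was at 0.328, 0.657 and 1.04 CPM in control and 4.41, 2.51 and 2.62 CPM in Dnmt1Δ/Δep libraries (log2 fold change 2.25, SE 0.45, edgeR adjusted p = 0.023), and its call was lost on leaving out any Dnmt1Δ/Δep library or control replicate 2, with adjusted p from 0.051 to 0.097. Repetin (Rptn) had a log2 fold change of 1.49 with an SE of 0.71, and its controls ran from 2.83 to 24.1 CPM into the Dnmt1Δ/Δep range of 21.1 to 47.2 CPM. Trichohyalin (Tchh) and cornulin (Crnn) had log2 fold changes of 0.19 and 0.73 and did not pass.

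Annexins bind S100a10 and S100a11 at membranes. Of 11 annexin and partner genes tested 1 was called higher, a share near the 6.03% of all tested genes, and the median log2 fold change was 0.03. Anxa1, Anxa2 and Anxa8, the most abundant per length, had log2 fold changes of 0.03, 0.04 and -0.15. The exception was Anxa9, an annexin with atypical calcium-binding sites, at 0.93, 1.57 and 3.56 CPM in control and 24.4, 21.1 and 9.31 CPM in Dnmt1Δ/Δep libraries (log2 fold change 3.20, SE 0.56, edgeR adjusted p = 0.015). Its call was lost on leaving out Dnmt1Δ/Δep replicate 1 or 2 or control replicate 2, with adjusted p from 0.051 to 0.072.

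Of 6 tested receptors of S100 proteins, 1 was called higher, where 6.03% of all tested genes were, and 2 passed the adjusted p alone in the downward direction, where 1.66% did. The called gene was Tlr4, through which calprotectin signals. It was at 4.05, 3.01 and 4.47 CPM in control and 20.7, 15.3 and 18.7 CPM in Dnmt1Δ/Δep libraries 1 to 3 (log2 fold change 2.25, SE 0.20, edgeR adjusted p = 0.0010), and it remained called in all 12 alternatives. Mcam, an adhesion receptor for calprotectin, passed the adjusted p in the other direction with a change under the fold threshold, from 395, 415 and 365 CPM to 214, 251 and 282 CPM (log2 fold change -0.65, SE 0.12, edgeR adjusted p = 0.019). So did Alcam (log2 fold change -0.51, edgeR adjusted p = 0.040), named after its values were seen. Bsg, the most abundant receptor of the list, and Emb had log2 fold changes of 0.11 and -0.11. Ager, which encodes Rage and is also named after its values were seen, stayed under 0.5 CPM in every library.

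Of 10 intracellular targets, 1 was called higher, near the 6.03% of all tested genes. Padi3, the deiminase that converts arginines of S100a3 and trichohyalin to citrulline, was at 0.751, 0.626 and 1.01 CPM in control and 18.8, 16.6 and 16.7 CPM in Dnmt1Δ/Δep libraries 1 to 3 (log2 fold change 4.46, SE 0.22, edgeR adjusted p = 0.00011). It was called in all 12 alternatives. Myh9, the myosin bound by S100a4, Cacybp, the calcyclin-binding protein gene, and Tgm1, the transglutaminase of the cornified envelope, had log2 fold changes of -0.01, -0.14 and 0.52 and did not pass.

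Finally, 18 genes of the signalling that is known to drive S100a8 and S100a9 in keratinocytes were examined, and 1 was called higher by edgeR and by DESeq2, near the 6.03% and 7.63% of all tested genes. At an unadjusted p under 0.05 edgeR had 6 of the 18 higher (15.8% of all tested genes) and 1 lower (7.79%), and 5 were higher (18.2%) and 2 lower (11.7%) without overlap between the groups. Fosl1, an AP-1 subunit, was at 16.7, 8.07 and 8.32 CPM in control and 38.0, 33.1 and 21.6 CPM in Dnmt1Δ/Δep libraries (log2 fold change 1.48, SE 0.34, edgeR adjusted p = 0.037). Its call was lost on leaving out replicate 1 or 2 of the Dnmt1Δ/Δep cells or replicate 2 or 3 of the controls, with adjusted p from 0.087 to 0.13. In the annotation 57.2% of the exon bases of Fosl1 are shared with Ccdc85b on the other strand, and since the strand setting of the counting is not given in the sources used here, reads of these genes may not be told apart. Nfkbiz, a nuclear regulator induced by interleukin 17, passed the adjusted p below the fold threshold (log2 fold change 0.64, edgeR adjusted p = 0.0063), as did the interleukin 1 receptor gene Il1r1 in the other direction (log2 fold change -0.44, edgeR adjusted p = 0.041). Both are named after their values were seen. The abundant factors Junb, Cebpb and Jun had log2 fold changes of 0.08, 0.26 and -0.18.

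**Figure D5:**
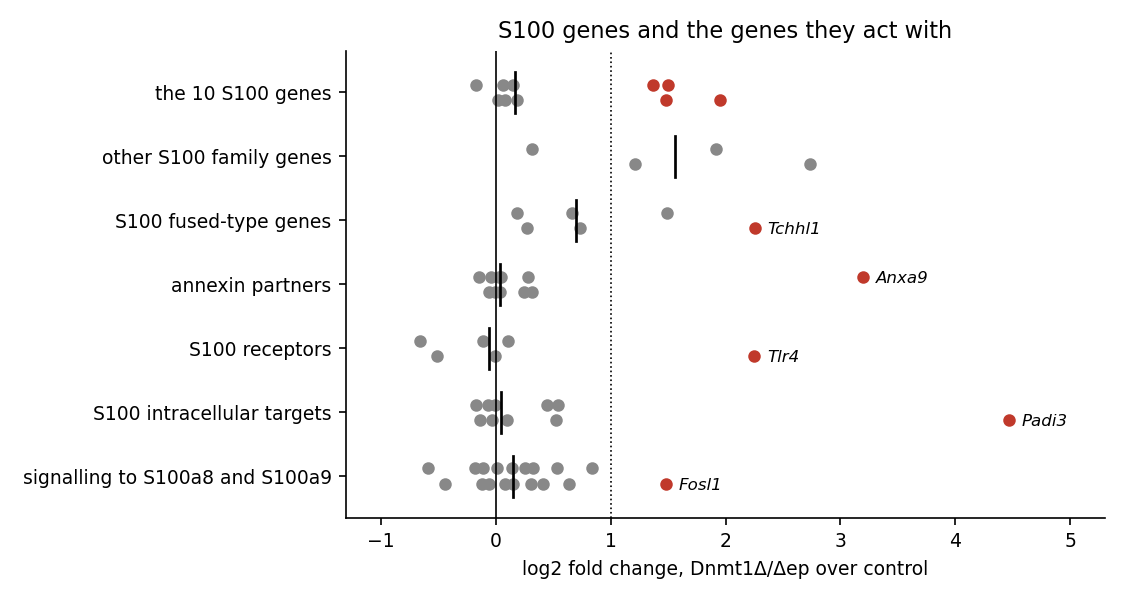
Log2 fold change of each tested gene in the lists of S100 genes and their partners, with red for genes called higher in Dnmt1Δ/Δep keratinocytes, a black line at each list's median and a dotted line at 1. Of the 10 S100 genes 4 are red, the other 4 tested S100 family genes have a median of 1.56 without a call, and each of the lists of partners holds 1 red gene.

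Searched over the 9302 genes with a mean of at least 10 CPM that are no S100 gene of this set, the genes most like S100a8 across the 6 libraries were Sh3kbp1, Cryzl1 and Mcc, with Pearson correlations of 0.990, 0.988 and 0.986 on log2(CPM + 1). Those most like S100a9 were Neu3, Tmem50b and Edem1, at 0.994, 0.985 and 0.983. Sh3kbp1 was the only one of the 6 to be called (log2 fold change 1.02, SE 0.19, edgeR adjusted p = 0.017). With 6 libraries in 2 groups such values are a description of likeness.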

How the data were processed

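The 6 poly(A) RNA-seq libraries, 3 per genotype, of keratinocytes grown from control and Dnmt1Δ/Δep mice were used, with groups taken from the sample titles and 3 mice per group by the study's methods. The deposited values were raw counts per Ensembl gene, which the authors made by trimming with cutadapt, filtering with Bowtie2, aligning with STAR and counting with HTSeq, on GRCm38 per the labels. The strand setting of the counting is not given in the sources used here. Counts of repeats and the authors' comparisons of genes and repeats (fold changes and p-values) were not used here. Between 8.73% and 12.9% of entries per library fell in 5 rows without a gene and were left out.

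Symbols, positions and exon lengths came from GENCODE M21, which matched 42548 of 43629 identifiers. Counts were filtered (filterByExpr, minimum count 10, total 15), scaled by TMM and tested across all genes with edgeR 4.0.16 (quasi-likelihood, group only, Benjamini-Hochberg, with the study's call thresholds) in R 4.3.3, after the script had been tested on simulated data. Standard errors were derived from the F statistic. CPM and RPKM were computed on the scaled library sizes, and p-values measure the spread between 3 animals a group. Alternatives were other scalings, other filters, DESeq2 1.42.0, leaving out each library and a replicate block. Replicate numbers share a sequencing lane by the column headers, and deviations from the group means correlated at 0.43, 0.28 and 0.30 within numbers, so the numbers were taken to pair the libraries. The main fit leaves this pairing out. Its standard errors, intervals and p-values therefore also carry differences between the replicate numbers, which the fit with the replicate block takes out. Near-identical copies were sought with blastn 2.17.0 (at least 95% identity over 50 bases). Promoter windows were taken from RefSeq.

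The members and gene lists were chosen with earlier results of these data known. Named genes are all 10 members, every called gene of a list (up to 5), up to 3 more of each list with the highest mean RPKM, the 3 genes most like S100a8 and S100a9, and Dnmt1, with exceptions stated beside them.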

Additional observations from a re-analysis of the deposited data

How the results depend on the processing

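The 4 S100 genes called higher were also counted as 4 under DESeq2 size factors, upper-quartile scaling, no filter on low counts and DESeq2 itself, and their log2 fold changes were positive in 12 of 12 alternatives. The fit with the replicate block also called 4 higher and 0 lower, with edgeR adjusted p of 0.010 for S100a3, 0.024 for S100a4, 0.030 for S100a8 and 0.046 for S100a9 (1173 higher and 95 lower over all genes, against 1014 and 66). Among the 14 called genes named from the other lists it ended the calls of Csf1r and Cnfn and changed no other. With genes under 1 RPKM in both groups removed, 1 was called and 1 passed the adjusted p alone (S100a8), with 11447 genes tested and 391 of them called higher against 1014 of 16829. Leaving out 1 library gave 0 to 3 called genes, also by the adjusted p alone: 0 without Dnmt1Δ/Δep replicate 1, 1 without replicate 2 of either group, 2 without replicate 3 of either group and 3 without control replicate 1. Over all genes these fits called 559 to 1183 higher, with 591 without Dnmt1Δ/Δep replicate 1. The cause was not tested. The near-zero log2 fold change of S100a10 changed sign under DESeq2 size factors (-0.0102), without a filter (-0.0186) and in DESeq2 (-0.0102). On leaving out 1 library it ran from -0.16 to 0.37, that of S100a6 from -0.21 to 0.44 and that of S100a11 from -0.23 to 0.37. The S100a8 to S100a9 log2 ratio difference ran from -0.16 to 0.10, with exact permutation p from 0.4 to 1, and was -0.02 within replicate pairs. With 3 animals a group, the adjusted p of S100a3, S100a4 and S100a9 lay just under 0.05.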

Other observations

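The genes around the S100 cluster were counted in the same fit, and those named here were chosen after their values were seen. Between S100a9 and S100a11, in 2825 kb that hold the epidermal differentiation complex, 59 genes were tested, of which 7 were called higher and 1 lower, where 6.03% and 0.392% of all tested genes were, with a median log2 fold change of 0.66. Those called higher were Pglyrp3, a peptidoglycan recognition protein gene (1.13), Prr9 (1.52), the small proline-rich genes Sprr2j-ps (1.66), Sprr2k (2.13) and Sprr3 (3.23), Tchhl1 (2.25) and Gm36953 (1.93), each given as log2 fold change. The late envelope gene Lce3d was called lower (log2 fold change -1.08). In the 1000 kb before S100a1, 27 genes were tested, and the natriuretic peptide receptor gene Npr1 was called higher and the fatty acid transporter gene Slc27a3 lower. In the 1000 kb after S100a10, 7 genes were tested, and Tdrkh and Celf3 were called higher.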
